A study of Mus musculus with 2 samples.

Results

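The mir-29 family comprised 4 of the 2202 miRNA genes counted in the mouse gastrocnemius: Mir29a, Mir29b-1, Mir29b-2 and Mir29c. They were chosen by symbol after the Ensembl identifiers of the count tables were matched to GENCODE M21, a rule that uses no measured value, although the family was picked for study with earlier results of these data known. Small RNA was sequenced from this calf muscle of female B6CASTF1/J mice aged 4 days. These mice are hybrids of the C57BL/6J and CAST/EiJ strains. The series holds 1 group of 2 libraries, from females numbered 3 and 4 in the labels, with no treatment, engineered allele or second condition named. The values below therefore describe levels in this muscle at 1 age and the spread between 2 animals.

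The miR-29 RNAs are known as repressors of extracellular matrix genes: they pair with the 3′ untranslated regions (3′ UTRs) of collagen and other matrix transcripts through the seed, bases 2 to 8 of the mature RNA. In skeletal muscle they are known to be induced as myoblasts differentiate, and loss of miR-29 is associated with fibrosis in several organs. Each gene is transcribed into a hairpin whose arms (5p and 3p) can each give a mature RNA, and the 3p arm is the one usually loaded into the silencing complex. Mature sequences of all 4 genes were found in RefSeq (GRCm38.p6) and are shown because their likeness decides which reads can be assigned to 1 gene. The 3p RNAs follow, 5′ to 3′, with the seed in capitals.
mmu-miR-29a-3p: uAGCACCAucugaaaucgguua
mmu-miR-29c-3p: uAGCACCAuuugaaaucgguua
mmu-miR-29b-3p: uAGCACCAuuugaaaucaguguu

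All 4 genes carried the seed AGCACCA on the 3p arm, and none of the other 1734 mature records in the RefSeq table did. With positions counted from 1 at the 5′ end, miR-29c and miR-29a differed at 1 base, U10C (U in miR-29c and C in miR-29a). From miR-29c to miR-29b there were 3 substitutions, G18A, U21G and A22U, and miR-29b was 1 base longer, at 23 against 22 bases. The miR-29b-3p sequences of Mir29b-1 and Mir29b-2 were identical over all 23 bases. They end in AGUGUU, a 3′ terminal motif known from work on human miR-29b as a nuclear import signal. Of the 1738 mature records, 3 end so: both miR-29b loci and Mir92b.

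The 5p RNAs, the usual passenger strands, set the loci apart and are shown for that reason, again with bases 2 to 8 in capitals.
mmu-miR-29a-5p: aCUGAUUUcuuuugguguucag
mmu-miR-29c-5p: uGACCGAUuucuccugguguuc
mmu-miR-29b-1-5p: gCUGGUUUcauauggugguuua
mmu-miR-29b-2-5p: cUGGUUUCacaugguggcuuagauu

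The 4 passenger strands had 4 different seeds, and each stood in 1 of the 1738 records except UGGUUUC of miR-29b-2-5p, which Mir6338 also has. Mir29b-1 and Mir29b-2 therefore share their 3p RNA in full and differ in their 5p RNA. The tables give 1 count per gene, not per arm.

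The genes lie as a pair on each of 2 chromosomes. In mm10, Mir29a occupies chr6:31062660-31062747 and Mir29b-1 chr6:31063023-31063093, both on the minus strand with 275 bases between them. Mir29b-1 overlaps the annotated lincRNA Gm27019 by 2 bases, and Mir29a lies in no other annotated gene. Mir29b-2 at chr1:195037040-195037120 and Mir29c at chr1:195037547-195037634 are on the plus strand, 426 bases apart. Both lie in an exon of the noncoding transcript A330023F24Rik on the same strand, and within an annotated UTR of Cd46, a complement regulator gene, on the opposite strand. The hairpins are shown with the mature arms in capitals, so that the shared 3p arm of the Mir29b genes can be seen inside differing hairpins.
Mir29a: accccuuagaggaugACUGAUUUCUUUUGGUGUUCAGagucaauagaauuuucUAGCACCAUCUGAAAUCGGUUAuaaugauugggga
Mir29c: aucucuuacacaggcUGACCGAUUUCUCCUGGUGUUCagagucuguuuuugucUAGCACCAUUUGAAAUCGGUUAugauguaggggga
Mir29b-1: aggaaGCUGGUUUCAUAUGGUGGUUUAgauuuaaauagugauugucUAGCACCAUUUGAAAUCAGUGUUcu
Mir29b-2: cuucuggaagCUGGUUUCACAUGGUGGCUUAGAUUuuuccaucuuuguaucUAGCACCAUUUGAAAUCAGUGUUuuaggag

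Across the whole hairpin, Mir29a and Mir29c were the most alike, with 78.0% identical positions in a global alignment. Mir29b-1 and Mir29b-2 had 73.2%, and the pairs of neighbours on 1 chromosome had less, at 60.4% for Mir29a with Mir29b-1 and 63.2% for Mir29b-2 with Mir29c. The hairpins most alike are thus found on different chromosomes. The longest identical stretch of Mir29b-1 and Mir29b-2 was 25 bases, which holds the whole 3p RNA. Mir29c shared 22 bases with Mir29b-1, of which the first 5 precede the mature RNA. From its first base, miR-29c-3p occurred in only 1 counted gene once 18 bases were read, and miR-29a-3p once 10 bases were read, while miR-29b-3p never did. Mir29a shared at most 14 bases with any counted gene. By a minimum of 20 shared bases, 3 of the 4 genes had such a stretch, beside 49.2% of the 2202 counted genes and 24.2% of the 335 detected ones. Detected means 2 CPM (counts per 1000000 counts in miRNA genes) or more in both libraries.

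Library 1 had 10426665 reads, of which 5569392 were counted in miRNA genes on their own strand, and library 2 had 8487769 and 4336759. One count equals 0.180 CPM in library 1 and 0.231 CPM in library 2. Reads that matched several places numbered 3842752 and 3187607 and belong to no gene. The tissue label was checked against marker lists. Of 9 skeletal muscle genes 8 were detected, with a summed level of 130998 CPM in library 1 and 120702 CPM in library 2. Of 6 neural genes 0 were detected, with a sum of 3.23 CPM at most. These are numbered copies of Mir9 and Mir124a, and a read matching several copies belongs to no gene. Their low sum therefore cannot show that neural RNAs were absent. Mir206 alone gave 129336 and 119323 CPM of the muscle sums. The next muscle marker was Mir499 at a mean of 1169 CPM, and Mir1a-1, the lowest detected, was at 2.20 CPM. A read matching both Mir1a-1 and Mir1a-2 would likewise belong to no gene. The count of Mir1a-1 is therefore uncertain and is not the level of miR-1a in the muscle. Markers of other cell types were present too: all 4 leukocyte genes, the endothelial gene Mir126a and the liver gene Mir122 were detected. Fibroblast and connective tissue markers, from the cells that make most interstitial collagen, summed to 5418 and 4243 CPM, with 4 of 5 detected. Most of that sum was Mir214, at a mean of 3127 CPM, and the cartilage gene Mir140, at 1576 CPM.

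The 4 mir-29 genes together had 823 counts in library 1 and 709 in library 2. That is 148 CPM and 163 CPM, or 0.0148% (95% exact binomial interval 0.0138 to 0.0158) and 0.0163% (0.0152 to 0.0176) of gene counts. The intervals overlap, and the mean share was 0.0156% ± 0.00111 (SD, n = 2). Intervals here and below cover counting error alone, as PCR copies of 1 molecule cannot be recognised without molecular identifiers.

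Mir29a led the family, with 490 counts (88.0 CPM, 95% exact interval 80.4 to 96.1) in library 1 and 435 counts (100.3 CPM, 91.1 to 110) in library 2. Its mean was 94.1 ± 8.71 CPM (SD, n = 2), and it made up 59.5% and 61.4% of the family's counts. Mir29c followed with 306 counts (54.9 CPM, 49.0 to 61.5) and 256 counts (59.0 CPM, 52.0 to 66.7), a mean of 57.0 ± 2.89 CPM. In both libraries Mir29a lay above Mir29c with intervals that did not overlap. Mir29b-1 had 13 counts in each library, which is 2.33 CPM (1.24 to 3.99) and 3.00 CPM (1.60 to 5.13). Mir29b-2 had 14 counts in library 1 (2.51 CPM, 1.37 to 4.22) and 5 in library 2 (1.15 CPM, 0.374 to 2.69), and so missed the detection level in library 2. The Mir29b genes lay close together, with overlapping intervals, and far below Mir29c in both libraries.

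**Figure D1:**
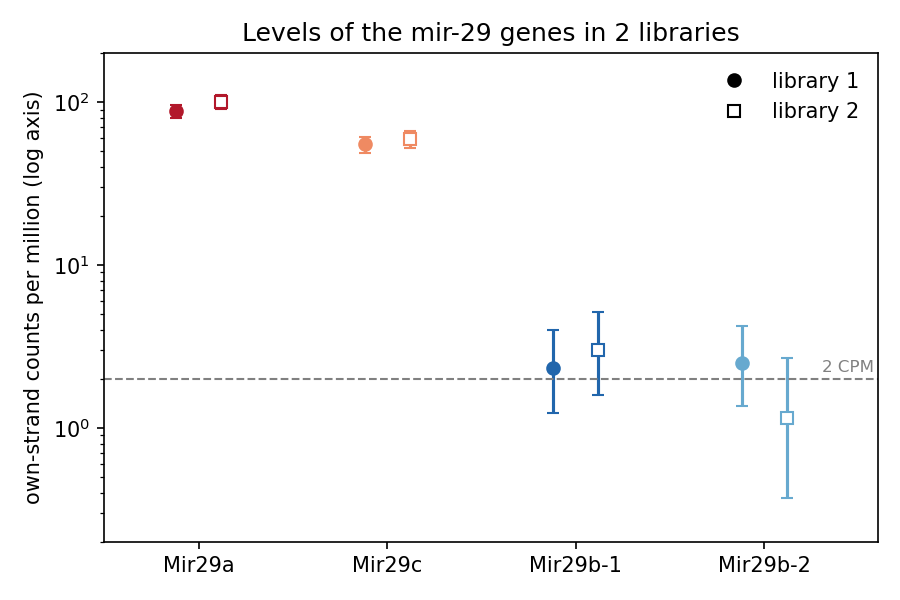
Own-strand CPM (log axis) of the 4 mir-29 genes in library 1 (filled circles) and library 2 (open squares); bars are 95% exact binomial intervals for counting error and the dashed line is the detection level of 2 CPM. Mir29a lies at 88.0 and 100.3 CPM and Mir29c at 54.9 and 59.0 CPM, while both Mir29b genes lie at 3.00 CPM or less.

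The order Mir29a, Mir29c, then the Mir29b genes was the same in both libraries, but the order of the 2 Mir29b genes was not. The ratio of Mir29a to Mir29c was 1.60 (95% exact interval 1.39 to 1.85) in library 1 and 1.70 (1.45 to 1.99) in library 2, a mean of 1.65 ± 0.0692 (SD, n = 2). Mir29b-1 had 0.929 times the counts of Mir29b-2 in library 1 (0.402 to 2.13) and 2.60 times in library 2 (0.870 to 9.31), and both intervals hold 1, so these neighbours in the order were not separable at this depth. A miRNA read covers the mature RNA and is not scaled by hairpin length. Per 100 bases of annotated hairpin the levels were 107, 64.8, 3.75 and 2.26 CPM for Mir29a, Mir29c, Mir29b-1 and Mir29b-2, which keeps the order of the means.

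By chromosome, the pair on chromosome 6 gave 503 and 448 counts and the pair on chromosome 1 gave 320 and 261. Their ratio was 1.57 (1.36 to 1.81) in library 1 and 1.72 (1.47 to 2.01) in library 2, with a mean of 1.64 ± 0.102 (SD, n = 2). Within each pair the members differed far more. Mir29a had 37.7 times the counts of its neighbour Mir29b-1 in library 1 (21.8 to 71.3) and 33.5 times in library 2 (19.4 to 63.4). Mir29c had 21.9 times the counts of Mir29b-2 in library 1 (12.8 to 40.5) and 51.2 times in library 2 (21.7 to 159). These gaps were set beside 101 pairs of adjacent same-strand miRNA genes no more than 1000 bases apart with at least 1 detected. In 80 of them both members had counts, with a median fold of 7.88 between the means, and 26.3% of the 80 lay farther apart than Mir29a and Mir29b-1, whose means differed 35.3-fold. The means of Mir29c and Mir29b-2 differed 31.1-fold, and 31.25% of the 80 lay farther apart than these. In the other 21 the lower gene had no counts, and 19 of these would exceed 35.3-fold even with the lower gene at its limit of 3 counts a library.

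The low Mir29b counts hold only for reads that match 1 place. The full miR-29b-3p RNA, shown above, is identical at both loci, so a read of it belongs to the multimapping line and to neither gene. Together the Mir29b genes had 27 counts in library 1 and 18 in library 2. They were 463 and 417 reads short of Mir29a, which is 0.0120% and 0.0131% of the reads in the multimapping line. They were 279 and 238 reads short of Mir29c, or 0.00726% and 0.00747% of that line. How many multimapping reads were miR-29b is not given in the sources used here, so the levels of Mir29b-1 and Mir29b-2, the ratios that use them and the family's share are uncertain. The ratio of Mir29a to Mir29c does not use them, and their mature 3p RNAs each occur in 1 counted gene.

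Genes with the same arrangement were set beside the Mir29b genes. There were 1018 counted genes matched by symbol to a RefSeq mature sequence. Of them, 57 had, like Mir29b-1 and Mir29b-2, some but not all of their mature RNAs identical at another locus in these records. Of these, 36 were detected, with a median of 45.2 CPM, and 1 of the 36 lay below Mir29b-1. Mir29b-1 itself lies just above the detection level of 2 CPM, so few detected genes could lie below it. Over all 57 genes, detected or not, the median was 7.28 CPM. A further 37 had every mature RNA repeated elsewhere, and 4 of them were detected. The 924 genes with no mature RNA repeated in these records, Mir29a and Mir29c among them, had 263 detected with a median of 164.5 CPM. Mir29a and Mir29c lay below this median of detected genes, while the median over all 924, most of them not detected, was 0.205 CPM. These medians are a description with no test. Repeats were sought among RefSeq records alone, so a gene whose copy has no record counts as not repeated. Mir1a-1, at 2.20 CPM, is in that class, while the detected Mir1a-2 was not among the matched genes. The class sizes and the number of genes below Mir29b-1 are therefore uncertain.

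**Figure D2:**
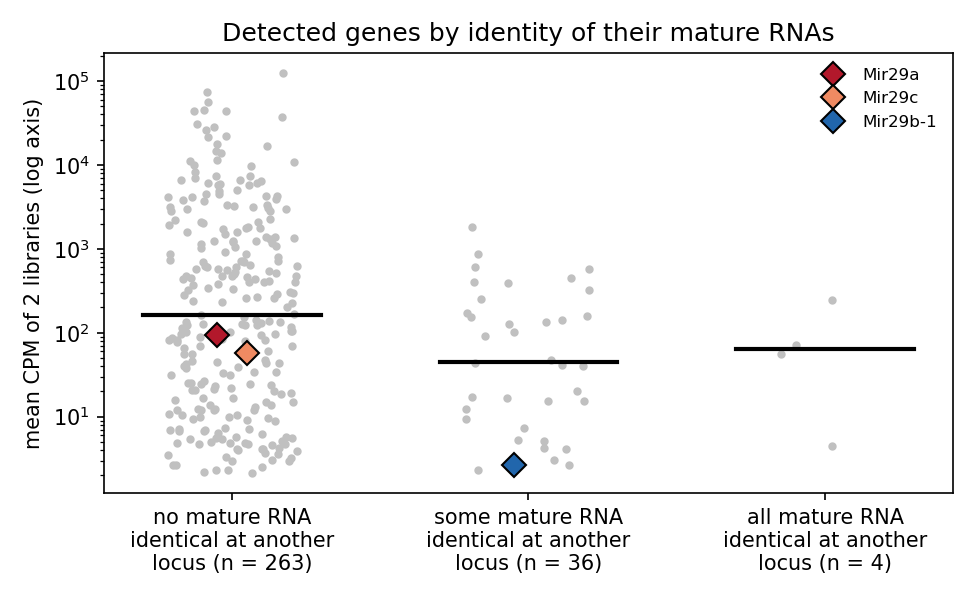
Mean CPM of 2 libraries (log axis) for 303 detected genes with RefSeq mature sequences. They are split by whether none, some or all of their mature RNAs are identical at another locus in those records. Bars are medians and diamonds are mir-29 genes (Mir29b-2 was not detected). Mir29b-1 at 2.67 CPM lies just above the detection level of 2 CPM. It is near the bottom of the detected genes that share some mature RNAs, whose median was 45.2 CPM. Over all 57 genes of that class, detected or not, the median was 7.28 CPM.

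Among all 335 detected genes, Mir29a ranked 181, Mir29c 198 and Mir29b-1 327 by mean level, and the median detected gene was at 123 CPM. Mir29a held rank 180 of all counted genes in both libraries, and Mir29c held rank 202 in library 1 and 200 in library 2. The genes closest to each member were found by distance of log2(CPM + 0.5) over the 2 libraries. For Mir29a these were Mir221, a regulator of myoblast cell cycle exit, at 88.7 and 102.8 CPM (distance 0.04), Mir30b (0.14) and Mir450-1 (0.15). For Mir29c they were Mir669l (0.10), the fibroblast-associated Mir199a-2 at 56.9 and 55.1 CPM (0.11) and Mir669c (0.16). Some mature RNAs of Mir450-1 and all of Mir199a-2 are found at another locus too, so these counts are uncertain. Mir3080 and Mir6900 had exactly the counts of Mir29b-1, with Gm47302 next at 11 and 14 counts. Mir3095 had those of Mir29b-2, followed by Mir466n at 12 and 5 counts and Mir19a, of the growth-promoting mir-17 to mir-92 cluster, at 15 and 6. With 2 libraries such likeness is mostly one of level.

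**Figure D3:**
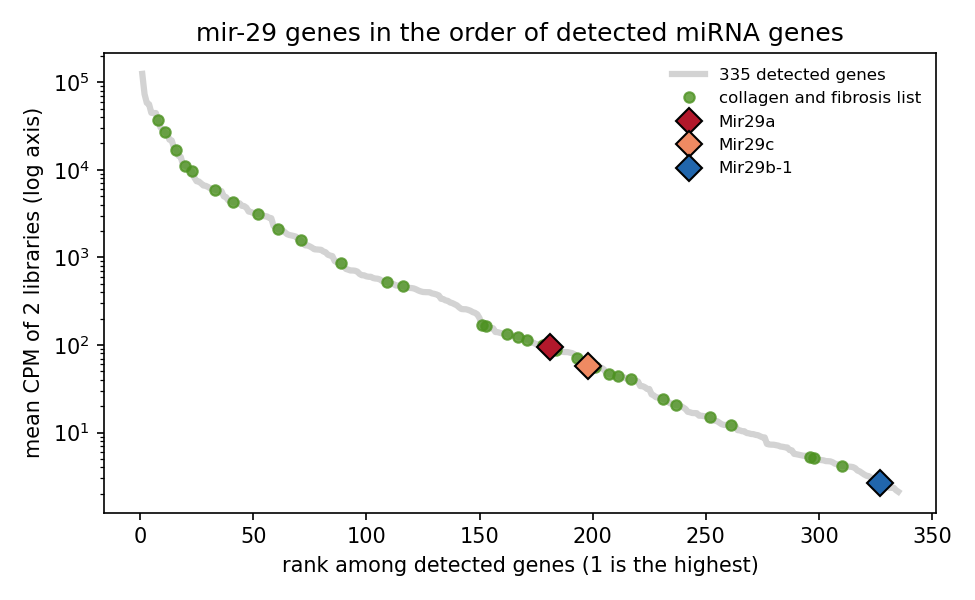
Mean CPM of 2 libraries (log axis) of the 335 detected miRNA genes in rank order (grey line), with 3 detected mir-29 genes as diamonds and 32 detected genes of the collagen and fibrosis list as circles. Mir29a at rank 181 and Mir29c at rank 198 sit just past the middle, and Mir29b-1 at rank 327 near the end.

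Between the animals, the mir-29 genes were among those that did not pass a test of counting error. For each detected gene, the split of its counts was tested (exact binomial, two-sided) against the ratio of totals scaled by edgeR's TMM factors, and p-values were Benjamini-Hochberg adjusted over the 335 genes. The test compares these 2 libraries and no conditions. It called 0 of the 3 detected members, against 55.5% of all detected genes (28.7% higher and 26.9% lower in library 2), and 0 of the 3 also had an unadjusted p under 0.05. With DESeq2 size factors 0 members were called as well, and with plain library totals 0 were called and 1, Mir29a, had an unadjusted p under 0.05. The log2 ratio of library 2 over library 1 was 0.17 for Mir29a (95% exact interval -0.02 to 0.36, adjusted p = 0.127), 0.08 for Mir29c (-0.16 to 0.33, adjusted p = 0.643) and 0.34 for Mir29b-1 (-0.89 to 1.57, adjusted p = 0.665). Mir29b-2, which was not detected and so not tested, had a log2 ratio of -1.15 (-2.97 to 0.41).

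These intervals differ in width by depth. At the 925 counts of Mir29a a rise of 0.19 on the log2 scale would have reached an unadjusted p under 0.05, and at the 562 counts of Mir29c a rise of 0.25. At the 26 counts of Mir29b-1 it would have taken 1.26. The median size of the log2 ratio over all detected genes was 0.21, above the first of these values and below the others. Over the same pair of libraries the fibroblast and connective tissue markers went from 5418 to 4243 CPM in sum. Of the 4 detected, 2 were called lower and none higher. Those 2 were Mir214 and the cartilage gene Mir140, at means of 3127 and 1576 CPM, which gave most of the sum. The 4 leukocyte markers went from 657 to 408 CPM, with 3 called lower, and endothelial Mir126a from 29518 to 21931 CPM, also called lower. Liver Mir122 went from 169 to 824 CPM and was called higher. The skeletal muscle markers went from 130998 to 120702 CPM, with 3 of 8 detected called lower and 1 higher. Of the 2 smooth muscle markers 1 was called higher and 1 lower. Of the 2 erythroid markers 1 was called higher and 0 lower. Among all detected genes, 26.9% were called lower and 28.7% higher in library 2. The part of these marker shifts in the mir-29 levels was not tested. In bulk tissue, fewer cells of a type and less RNA per cell cannot be told apart.

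**Figure D4:**
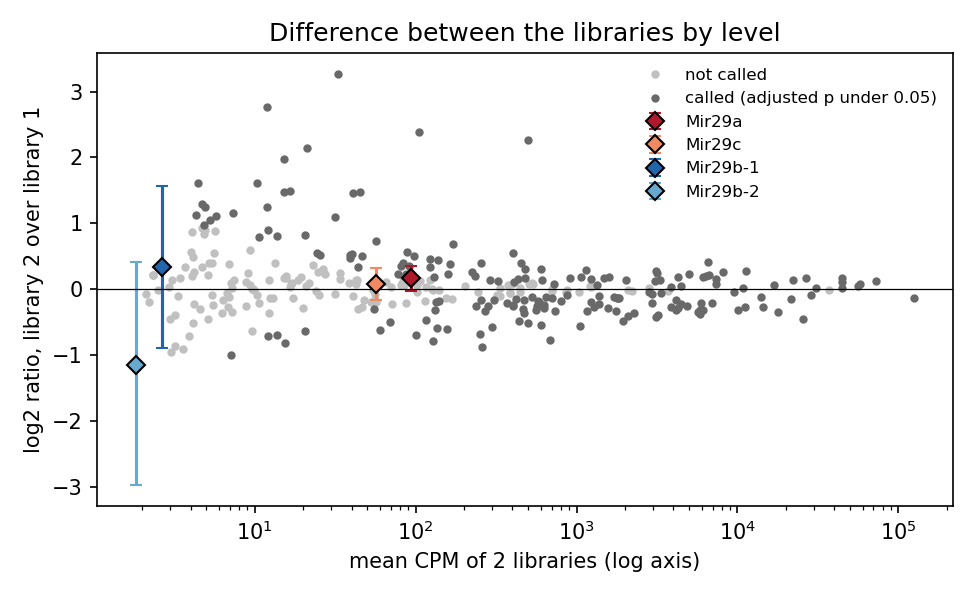
Log2 ratio of library 2 over library 1 against mean CPM (log axis) for 335 detected genes, dark where the counting test called a difference, with the 4 mir-29 genes as diamonds and 95% exact intervals for counting error. The intervals of all 4 cross 0, from -0.02 to 0.36 for Mir29a to -2.97 to 0.41 for Mir29b-2.

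Other miRNA genes with reported roles in collagen deposition or fibrosis spanned the whole range of levels. Of 36 genes on a list drawn from general knowledge, all were counted and 32 were detected, with a median of 128 CPM over the detected ones, close to the 123 CPM of all detected genes. Mir29a lay below 19 of them and above 17. The 5 highest were Mirlet7g, a let-7 growth-repressing gene, at 36830 ± 256 CPM (SD, n = 2), the smooth muscle gene Mir143 at 26778 ± 2565 CPM, the profibrotic Mir21a at 16868 ± 766 CPM, Mir26b at 11150 ± 1321 CPM and the Hox-cluster gene Mir196b at 9580 ± 95.7 CPM. Mir21a, known to rise in activated fibroblasts, thus had 179 times the mean level of Mir29a. The fibroblast-associated Mir214 was at 3127 ± 616 CPM and the cartilage gene Mir140 at 1576 ± 207 CPM, 33.2 and 16.7 times Mir29a. Below Mir29a lay Mir199b, whose mature RNAs are also repeated elsewhere, at 71.5 ± 7.25 CPM and the antifibrotic Mir133a-1 at 5.24 ± 1.07 CPM. Mir133a-1 and Mir133a-2 are known to give the same main mature RNA, so the count of Mir133a-1 is uncertain as for the Mir29b genes and is not the level of miR-133a in the muscle.

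Between the libraries the counting test called 9 of the 32 detected list genes higher in library 2, 12 lower, and 11 not, or 28.1% and 37.5% beside 28.7% and 26.9% of all detected genes. Under DESeq2 size factors 9 were called higher and 17 lower, beside 24.2% and 31.3% of all detected genes. Called higher were Mir429, Mir200b and Mir200c of the epithelial mir-200 family, at log2 ratios of 1.48, 0.83 and 0.55, with Mir26a-2 (0.68), Mir30c-1 (0.53), Mir30c-2 (0.51), Mir132 (0.38), Mir143 (0.17) and Mir21a (0.07). Called lower were Mir192 (-0.71), Mir101a (-0.47), Mir214 (-0.43), Mir30e (-0.41), Mir24-2 (-0.31), Mir140 (-0.29), Mir30a (-0.29), Mir26b (-0.26), Mir30d (-0.21), Mir101b (-0.17), Mir145a (-0.12) and Mir196b (-0.04). Over these libraries the epithelial markers, which include the mir-200 genes, went from 267 to 375 CPM in sum, with 5 of 7 detected and all 5 called higher, and their part in the list's calls was not tested. Of the genes named here, Mir26a-2, Mir30c-1, Mir30c-2 and Mir24-2 share a mature RNA with another locus, as the Mir29b genes do, so their counts are uncertain. The list had a median log2 ratio of -0.04, and all detected genes 0.03.

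The collagen side was read from sequence alone, since mRNA was not measured in these libraries. The letters TGGTGCT, which pair with the mir-29 seed, and TGGTGCTA, the same match followed by A, were searched on the sense strand of the longest annotated 3′ UTR of each protein-coding gene in GENCODE M21. TGGTGCTA contains TGGTGCT, so the second count is part of the first. Of 44 collagen genes, 25 held TGGTGCT (56.8%) and 16 held TGGTGCTA (36.4%). Among all 20971 protein-coding genes with a 3′ UTR, the shares were 13.1% and 2.86%. Median UTR lengths were 1032.5 bases for the collagens and 954 for all genes, and the matches came to 0.693 and 0.106 per 1000 bases. A match of letters is a description and not a measured binding site.

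Among the collagen classes, all 6 type 4 genes, which build basement membranes, held a match, and 4 of the 6 held at least 2. Of the 9 genes classed here as fibrillar (the Col1, Col2, Col3, Col5 and Col11 genes), 7 held a match and 6 the longer form. Col24a1 and Col27a1, also fibrillar collagens, were placed among the other collagens and held 1 match each. Of 6 type 6 genes, which form the microfibrils around muscle fibres, Col6a2 and Col6a3 held 1 match each. Col1a2 and Col11a2 were the genes of these 9 with none in this window. Col5a1 held 4 matches and Col5a3 held 3. Examples of the longer form, 1 each from a type 1, 3, 4 and 6 collagen gene, are shown with the match in capitals, because the 3p RNAs printed above all carry the seed that pairs with these letters. Coordinates are mm10.
Col1a1, chr11:94952516-94952545, plus strand: gggtggggtgggaaggaatttcTGGTGCTA
Col3a1, chr1:45348960-45348989, plus strand: ttccaacttcaaaatgtctcaaTGGTGCTA
Col4a1, chr8:11199761-11199790, minus strand: cgcctctgccaccgtcacaacaTGGTGCTA
Col6a3, chr1:90767411-90767440, minus strand: ctctgcacgtgacctgtcaataTGGTGCTA

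The 4 sites were picked for the 8 letters in capitals, and Col4a2, the partner chain of Col4a1, held 2 matches of the shorter form only. As the seed lies in the part of the RNA that miR-29a, miR-29b and miR-29c have in common, the search cannot say which member a site would pair with. Of the 823 and 709 reads counted in the 4 genes, Mir29a and Mir29c gave 796 and 691.

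**Figure D5:**
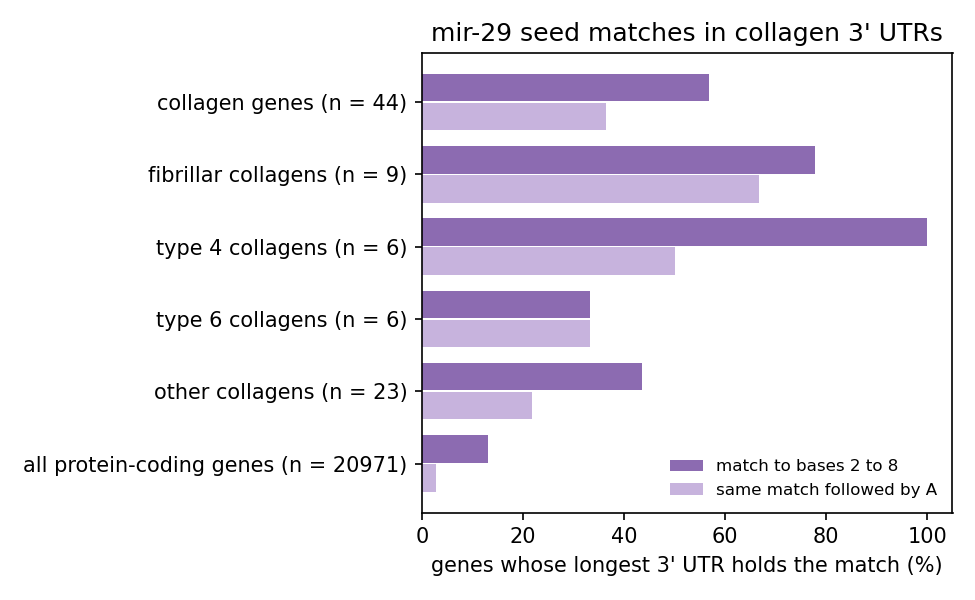
Share of genes (%) whose longest annotated 3′ UTR holds the seed match TGGTGCT (dark) or the same match followed by A (light), for collagen genes, their classes and all protein-coding genes, with the number of genes in each. Collagen genes stand at 56.8% and 36.4%, and all protein-coding genes at 13.1% and 2.86%.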

How the data were processed

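Per the labels and the descriptions deposited beside the tables, reads were placed on mm10 with the GENCODE M21 annotation by the authors. No source used here names the aligner or counter. The deposited values are raw counts per miRNA gene in 3 unnamed columns. Column order (strand ignored, own strand, opposite strand) was read from the values, because nearly all gene counts stand in the middle column and nearly none in the last. Reads matching several places have a line of their own. The 4 lines naming no gene stayed out of totals; they held 46.6% and 48.9% of reads.

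CPM were computed from own-strand counts. All 2202 identifiers matched GENCODE M21. Detected meant 2 CPM or more in both libraries. TMM factors came from edgeR 4.0.16 (R 4.3.3) on detected genes, and DESeq2 1.42.0 size factors and plain totals were alternatives. Intervals are exact at 95%. A threshold of 0.05 was used after Benjamini-Hochberg adjustment. The counting test was tried on simulated counts that varied by counting error alone, as the test assumes. That check does not cover variation between animals. Python 3.11.15, scipy 1.17.1 and pandas 2.3.3 were used. Sequences came from RefSeq (GRCm38.p6), where 1018 counted genes matched by symbol, and from GENCODE M21.

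The members follow from gene symbols alone, but the family and the lists were chosen with earlier results of these data known. The named genes were the members, the 3 nearest genes to each, genes sharing a stretch or seed, and the 5 highest and the called genes of the collagen list; Mir214, Mir140, Mir199b, Mir133a-1 and the collagen genes were picked afterwards, with values known.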

Additional observations from a re-analysis of the deposited data

Results flagged for a closer look

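The multimapping line, which entered none of the gene values, took 36.9% of library 1 and 37.6% of library 2. The whole miR-29b-3p RNA would fall there, being identical at Mir29b-1 and Mir29b-2. What share of that line is miR-29b was not tested. Opposite the 4 mir-29 genes, 0 reads were counted on the other strand, which allows levels of 0.539 CPM (library 1) and 0.692 CPM (library 2).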

How the results depend on the processing

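No member was called between the libraries under any of the 5 alternatives (DESeq2 size factors, plain totals, detection at 10 CPM, detection at 1 count in either library, strand ignored), where the lowest adjusted p of the counting test ranged from 0.0788 to 0.250. The signs of all 4 log2 ratios were the same with the other scalings, with strand ignored and with pseudocounts of 0.1 and 5 CPM. The members' own counts were equal with strand ignored, but the total was smaller, so the family's share became 0.0177%, and it was 0.00812% of all reads in the tables. Leaving out 1 library gave shares of 0.0148% to 0.0163%, ratios of Mir29a to Mir29c of 1.60 to 1.70, ratios of the chromosome 6 to the chromosome 1 pair of 1.57 to 1.72, and 3 to 4 detected members; with 1 library left there is no test. The median level of genes with a mature sequence repeated elsewhere was 1.27 CPM over all such genes and 51.4 CPM over detected ones, since fewer genes enter. At detection of 10 CPM 2 members were kept, and at 1 count all 4. The scaling checks of the collagen list were chosen after seeing the data. No paired analysis was possible because the series has 1 group. Depth limits the Mir29b genes, with 26 and 19 counts over both libraries.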
